A study of Homo sapiens with 6 samples.

Results

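Cholesterol synthesis and its control were followed in 28 genes, given by name in a list and found in the deposited table by their symbols, 28 of the 60843 genes that it held. Of these, 20 encode enzymes that build cholesterol from acetyl-CoA. The other 8 encode the sterol regulatory element binding proteins (SREBPs), the proteins that escort or retain them, and proteins that move sterols or degrade lipoprotein receptors. All 28 were present in every library, and all 28 passed the filter on low counts.

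Cells make cholesterol through the mevalonate pathway, which joins acetyl units into isoprenyl diphosphates, then squalene, then lanosterol, and trims lanosterol to cholesterol. SREBPs are membrane-bound transcription factors held in the endoplasmic reticulum by INSIG proteins when sterols are plentiful. When sterols are scarce, SCAP escorts them to the Golgi, where proteases free the part that enters the nucleus and switches on sterol genes (mainly SREBP2, from SREBF2) or fatty acid genes (mainly SREBP1, from SREBF1). A separate group of nuclear receptors, the liver X receptors (LXRs), is activated by oxysterols when sterols are plentiful and induces sterol efflux genes, SREBF1 and MYLIP.

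The study used BJ cells, wild-type fibroblasts of human foreskin kept as an established line, and asked what chemical stimulation does to them on the way to cells it named FiNs. At day 0 the cells had grown in DMEM with fetal bovine serum on poly-D-lysine and had received no forskolin. The day 2 cells had been in the neuronal induction medium with 10 µM forskolin, a plant compound that raises cAMP by activating adenylyl cyclase. The day 5 cells had moved at day 2 to the maturation medium, again with 10 µM forskolin. Medium, time and drug thus changed together, and every library after day 0 had the drug. The composition of both neuronal media, lipids and serum included, was not given in the sources used here. Effects of drug, medium and time cannot be told apart, since the same media without the drug were not analysed here. All cells were of 1 line. Each day had 2 libraries, and the labels did not say whether they came from separate cultures, so a p-value sets a difference against the spread of library pairs that may be technical replicates.

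The 6 libraries held 17605858 to 27953926 expected counts, the fewest at day 5. The labels called the cells of days 2 and 5 induced neuron cells. All 9 fibroblast markers stood above 1 CPM (the count divided by library size, scaled by TMM factors). Summed over the list, fibroblast markers ran from 18400 to 18700 CPM at day 0, 15400 to 15600 at day 2 and 26500 to 27000 at day 5. The markers did not move together. From day 0 to day 5 COL1A2 went from 4996 and 5111 CPM to 14190 and 14460. COL3A1 went from 2513 and 2573 to 6394 and 6489, and PDGFRB from 222.6 and 233.7 to 465.3 and 475.3. The other markers of the list stood lower at day 5. VIM went from 4845 and 4857 to 1458 and 1474 and DCN from 1050 and 1038 to 201 and 204, and THY1, LUM, S100A4 and COL1A1 also stood lower. Of 10 neuronal markers, 5 stood above 1 CPM, STMN2 was at 0 in all 6 libraries, DCX did not exceed 0.0546 CPM, and the sum was 252 to 261, 155 to 162 and 112 to 115 CPM in the same order. Most of that sum was TUBB3, at 223 and 229 CPM on day 0 and 87.2 and 87.7 on day 5. MAP2 and SYT1 were also lower at day 5 than at day 0. SNAP25 went the other way, from 5.76 and 6.01 CPM on day 0 to 16.85 and 19.76 on day 5, and SYN1 stayed between 1.53 and 3.17 CPM. KRT5, KRT14 and KRT1 of keratinocytes, CD3E of T cells and ADIPOQ of adipocytes were at 0 in all 6 libraries, while the 4 endothelial markers summed to 4.97 to 9.45 CPM on days 0 and 2 and 61.3 to 64.8 CPM on day 5, nearly all of it KDR. Other markers of those lists were present. KRT10 of keratinocytes went from 17.2 and 17.9 CPM on day 0 to 35.3 and 37.2 on day 5. CD68 of immune cells read 93.2 and 93.9, then 128.1 and 128, then 49.2 and 45.0 CPM. FABP4 of adipocytes went from 3.71 and 3.16 CPM on day 0 to 0.360 and 0.109 on day 5. Markers of dividing cells summed to 126 to 128, 83.8 to 84.2 and 116 to 123 CPM. Of that list PCNA alone was higher at day 5 (85.7 and 87.9 CPM, against 51.6 and 52.5 at day 0), and the other 5 were lower, such as MKI67 at 5.76 and 6.82 against 15.5 and 14.1. The part of these shifts in the results was not tested. In bulk RNA, fewer cells of a type and less RNA per cell cannot be told apart. Scaling by library totals instead of TMM factors shifted the median of all genes by more than 0.1 on the log2 scale, from 0.00 to -0.18 at day 2 and from 0.04 to -0.16 at day 5, both against day 0. It also changed the split of all genes called higher and lower from 5457 and 5455 to 4249 and 6902 at day 2, and from 5839 and 5566 to 4415 and 6899 at day 5. Changes below are relative to the TMM scale.

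The sterol genes did not move as a single block. From day 0 to day 2 more members rose than fell, and from day 2 to day 5 most fell. Between day 0 and day 2, 27 of 28 members passed edgeR's quasi-likelihood test at an adjusted p (Benjamini-Hochberg over 16327 genes) below 0.05, where 66.8% of all genes tested did. Of these, 17 rose and 10 fell, against 33.4% of all genes higher and 33.4% lower, and the median log2 fold change of the members was 0.44 against 0.00 for all genes. Between day 2 and day 5, 25 members were called, against 65.8% of all genes. Here 6 rose and 19 fell (all genes 32.1% and 33.7%), with a median of -0.65 against 0.01. From day 0 to day 5, 23 were called, against 69.9% of all genes, with 7 higher and 16 lower (all genes 35.8% and 34.1%) and a median of -0.36 against 0.04. The share of members called at any size thus stood not far above that of all genes from day 0 to day 5, and more of them were lower than higher. The 3 comparisons share their libraries in pairs and are not independent.

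A stricter rule, edgeR's glmTreat against a 2-fold change, singled out fewer members. At day 2 against day 0 it called 4 members higher, HMGCS1, IDI1, INSIG1 and STARD4, and 2 lower, ACAT2 and MVK, where 12.5% of all genes were called, 6.99% higher and 5.54% lower. At day 5 against day 2 it called 3 higher, LBR, SREBF1 and MYLIP, and 6 lower, HMGCS1, IDI1, SQLE, MSMO1, INSIG1 and NPC1 (all genes 14.4%, 6.41% and 7.96% by direction). At day 5 against day 0 it called 4 higher, LBR, SREBF1, STARD4 and MYLIP, and only ACAT2 lower (all genes 20.1%, 9.74% and 10.3% by direction). The day 2 count was fragile. It fell from 6 to 2 without replicate 2 of day 0, to 2 without replicate 1 of day 2, to 3 without replicate 2 of day 2 and to 4 without replicate 1 of day 0, and the 2 lower calls became 0, 0, 0 and 1. With library totals the counts became 2 higher and 2 lower at day 2, and 3 higher and 7 lower at day 5 against day 0.

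**Figure D1:**
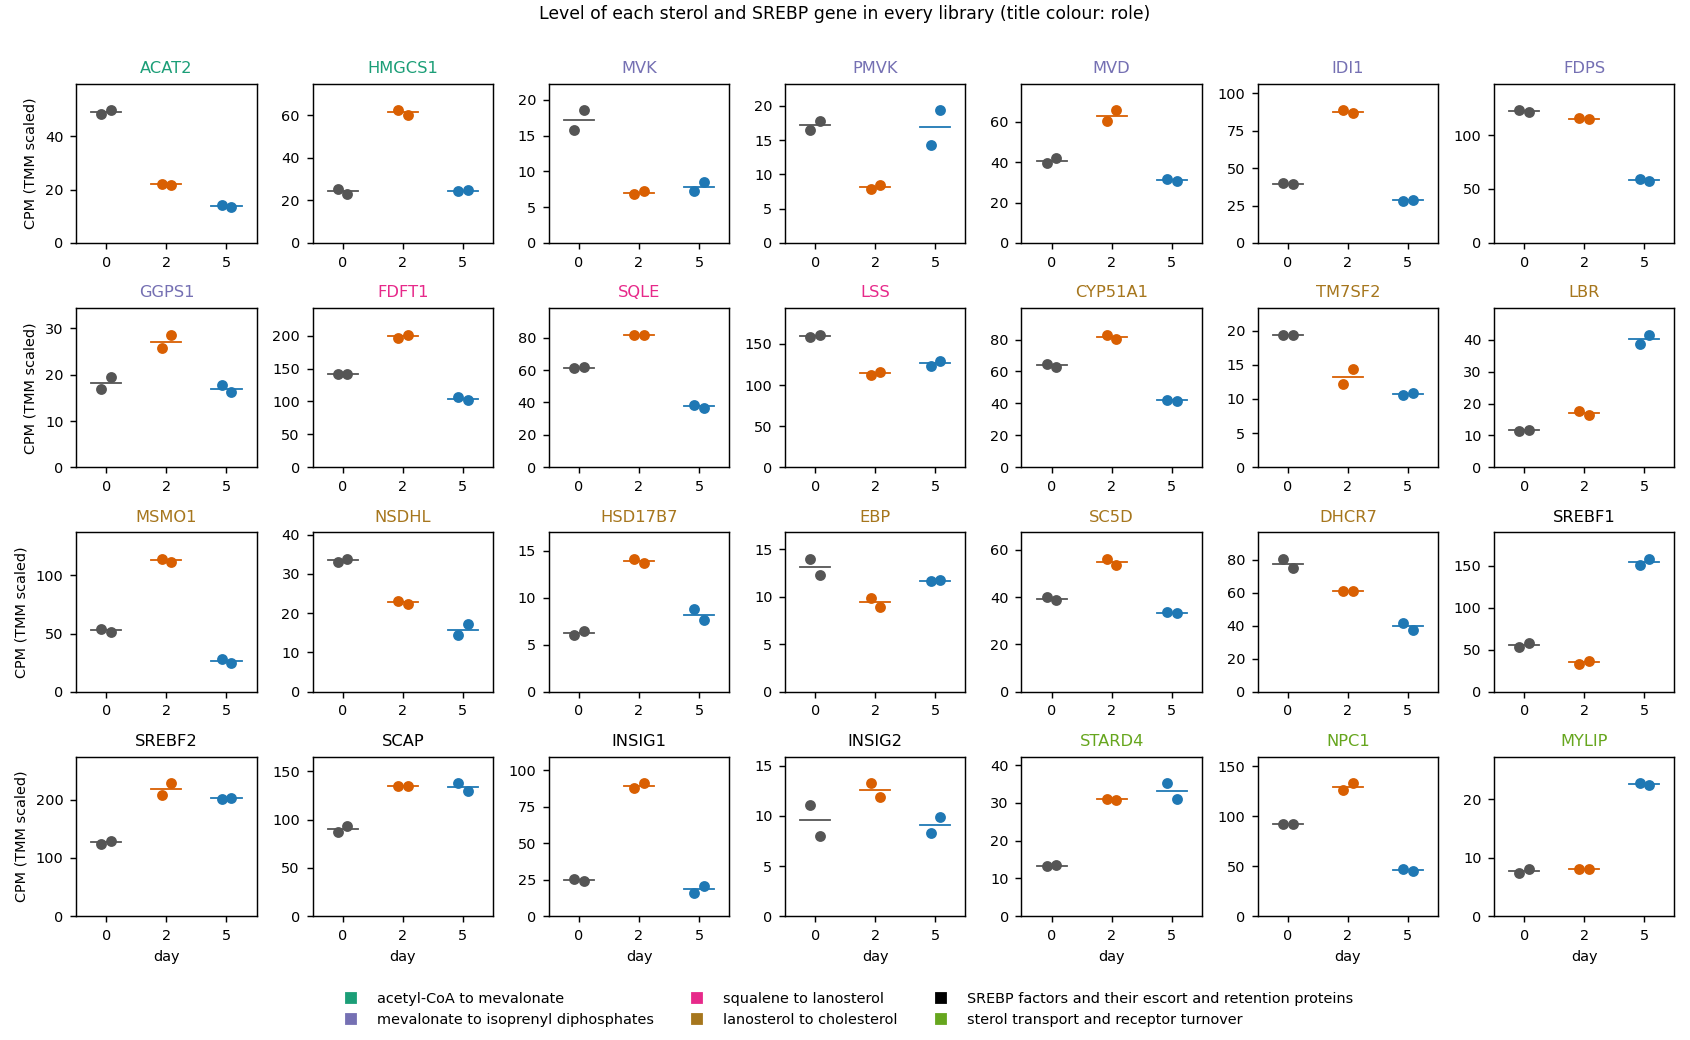
Level of each of the 28 genes in CPM (linear axis from 0, TMM scaled) at days 0, 2 and 5; points are the 2 libraries of a day, short lines their means, and the colour of a gene's name gives its role. Most enzymes of the later pathway stand lowest at day 5, while SREBF1, LBR and MYLIP stand highest there.

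**Figure D2:**
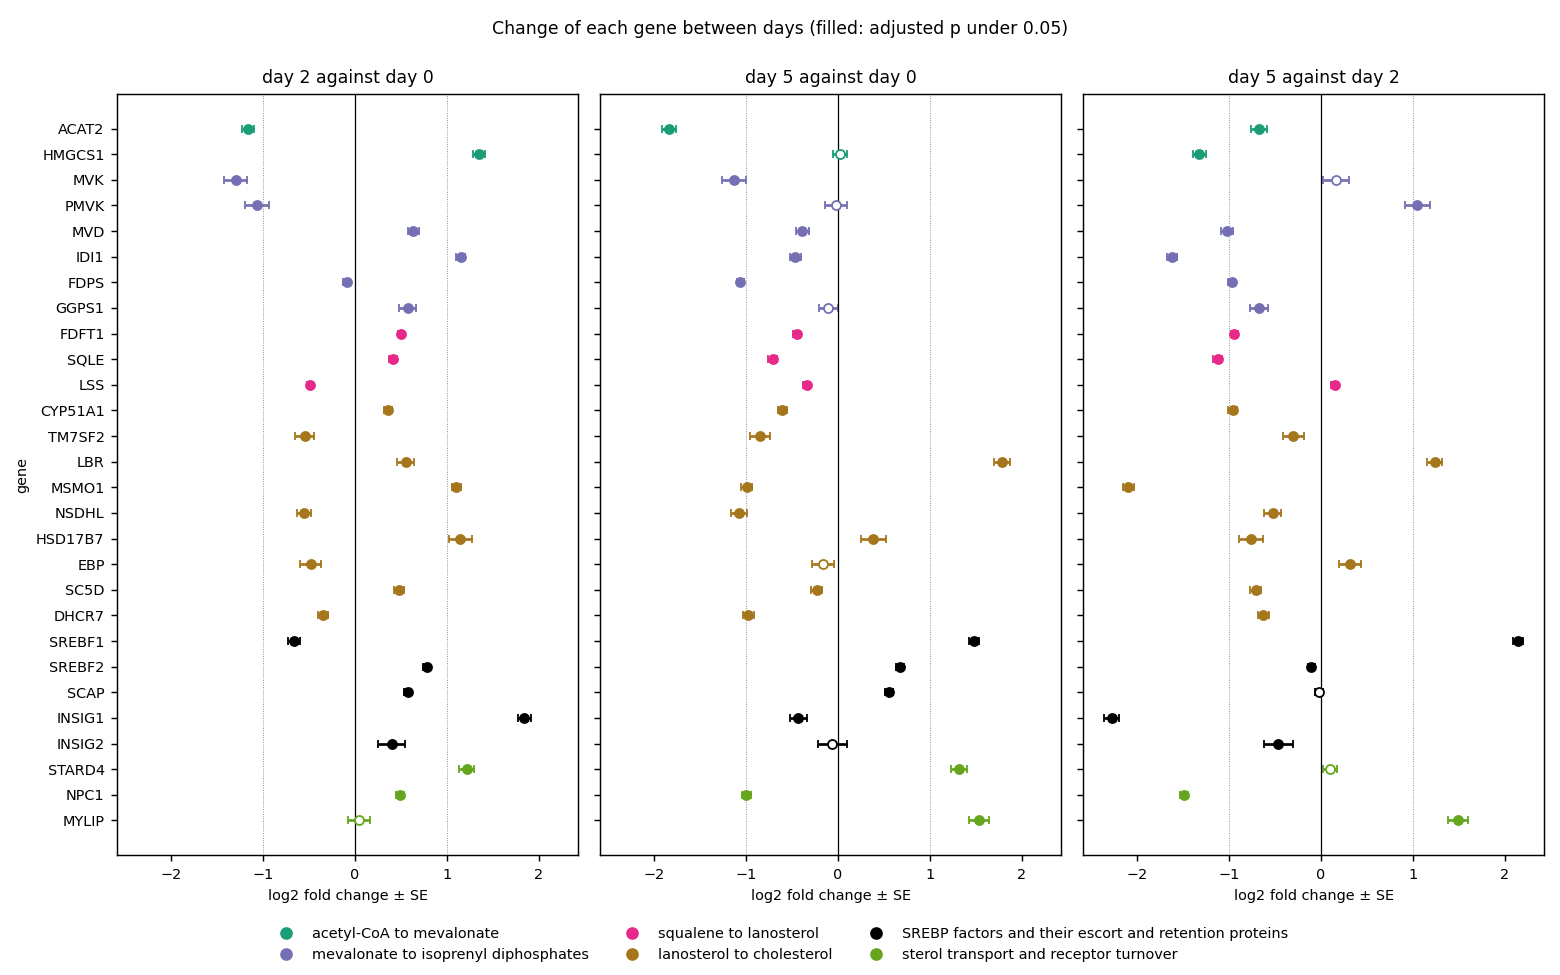
Log2 fold change of each gene with its standard error in the 3 comparisons, coloured by role; filled points have an adjusted p below 0.05 and dotted lines mark a 2-fold change. At day 5 against day 2, 19 filled points lie left of 0 and 6 lie right of it.

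Sequence before the start sites is shown here for members that bear on this pattern, because SREBPs act through a short sterol regulatory element (SRE), usually beside a CCAAT box bound by NF-Y. Windows from 250 bases before to 50 after a gene's start came from a RefSeq table on GRCh38.p14, which held 25 of the 28 members in 33 windows. SQLE, FDFT1 and ACAT2 were not matched. Both strands were searched for the classical SRE (the motif in capitals first in the SREBF2 stretch), for its shorter core CACNCCAC, which the classical SRE contains, for CCAAT (the NF-Y box), for the GC box GGGCGG and for the cAMP response element TGACGTCA. SREBF2 alone held the classical SRE, 3.03% of the members' windows against 0.0456% of all 35116 windows. The core was found in SREBF2, INSIG1, IDI1 and SC5D, 15.2% of the members' windows against 5.87% of all. The SC5D windows overlap and hold the same core site, which is thus counted in both. CCAAT was found in 18 members, 60.6% of windows against 34.6%, and the GC box in 23 members, 87.9% against 45%. The cAMP response element was found in no member window, against 1.85% of all windows. With so low a share and 33 windows, its absence says little. All 28 members are protein-coding genes. In the 22199 windows of such genes the classical SRE was in 0.045% and the core in 6.17%. CCAAT was in 34.7% of them, the GC box in 56.3% and the cAMP response element in 2.26%. These matches are letters in a window, not measured binding. Only exact matches were counted, so shorter or near matches were missed, and no match does not mean that a site is absent.

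SREBF2 and INSIG1 are printed for the SRE matches that lie, with a CCAAT box, before the annotated gene. The stretches run 5′ to 3′ on the gene's strand and stop before the GENCODE gene, at chr22:41832855-41833078 (plus strand) and chr7:155297628-155297775 (plus strand) of GRCh38.p14. Capitals mark SRE or core matches and CCAAT boxes. A match on the other strand appears as the reverse complement, ATTGG for CCAAT. In SREBF2 the SRE begins 134 bases before the RefSeq start and the CCAAT box 106 bases before it.
SREBF2: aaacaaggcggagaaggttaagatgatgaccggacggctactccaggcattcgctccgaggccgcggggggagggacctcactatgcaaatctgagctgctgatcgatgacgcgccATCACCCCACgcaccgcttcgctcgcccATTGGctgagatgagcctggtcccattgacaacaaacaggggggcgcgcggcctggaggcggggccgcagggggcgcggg
INSIG1: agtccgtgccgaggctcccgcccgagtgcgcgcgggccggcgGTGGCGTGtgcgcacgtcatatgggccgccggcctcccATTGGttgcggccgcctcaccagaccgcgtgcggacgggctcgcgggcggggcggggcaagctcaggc

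The core of IDI1 and that of SC5D lay inside the annotated genes, so only 30 bases around each are shown, at chr10:1048983-1049012 (minus strand) and chr11:121292773-121292802 (plus strand). The IDI1 core, at position -115 from the RefSeq start, also had CCAAT boxes near it, at -132, -129 and -87, none of them whole in the bases shown. For SC5D the core, at -68 from a RefSeq start, had one at -137. From the other RefSeq start of SC5D, the same core lies at position 14. Both matches read GTGGCGTG, in capitals, the same 8 letters as in INSIG1.
IDI1 core: ggccgggcgatGTGGCGTGgactggcgctg
SC5D core: tttgcagagcaGTGGCGTGcggagcggcgg

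The next stretches were chosen after their genes' values were seen, as members that rose at day 2 (HMGCS1, IDI1, MSMO1, HSD17B7) and, for contrast, NSDHL, which fell. They lie at chr5:43313513-43313662 (minus), chr10:1049171-1049369 (minus), chr4:165327419-165327622 (plus), chr1:162790452-162790701 (plus) and chrX:152830813-152830966 (plus). Capitals mark CCAAT boxes on either strand. MSMO1 shows 3 of them and NSDHL shows 4, of which 2 overlap. None of these stretches holds an exact match to the core, which does not show that they lack an SRE.
HMGCS1: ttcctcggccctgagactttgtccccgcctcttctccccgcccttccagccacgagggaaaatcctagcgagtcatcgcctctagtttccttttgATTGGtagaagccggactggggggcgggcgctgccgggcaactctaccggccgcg
IDI1 upstream: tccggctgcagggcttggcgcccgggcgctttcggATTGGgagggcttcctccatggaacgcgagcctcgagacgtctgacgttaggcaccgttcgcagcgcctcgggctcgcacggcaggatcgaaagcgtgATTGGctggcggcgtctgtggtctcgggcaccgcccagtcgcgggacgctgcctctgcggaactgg
MSMO1: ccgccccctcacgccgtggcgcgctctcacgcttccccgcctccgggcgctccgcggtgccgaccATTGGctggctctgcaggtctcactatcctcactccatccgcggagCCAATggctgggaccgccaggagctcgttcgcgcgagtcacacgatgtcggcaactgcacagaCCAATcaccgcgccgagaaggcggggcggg
HSD17B7: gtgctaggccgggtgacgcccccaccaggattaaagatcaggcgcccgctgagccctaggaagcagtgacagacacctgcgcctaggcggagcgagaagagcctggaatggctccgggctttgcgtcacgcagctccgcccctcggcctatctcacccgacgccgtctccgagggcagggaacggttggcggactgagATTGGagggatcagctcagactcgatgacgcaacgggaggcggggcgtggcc
NSDHL: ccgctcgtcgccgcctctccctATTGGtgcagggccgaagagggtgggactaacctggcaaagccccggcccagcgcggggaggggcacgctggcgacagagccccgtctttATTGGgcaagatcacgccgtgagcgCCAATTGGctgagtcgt

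**Figure D3:**
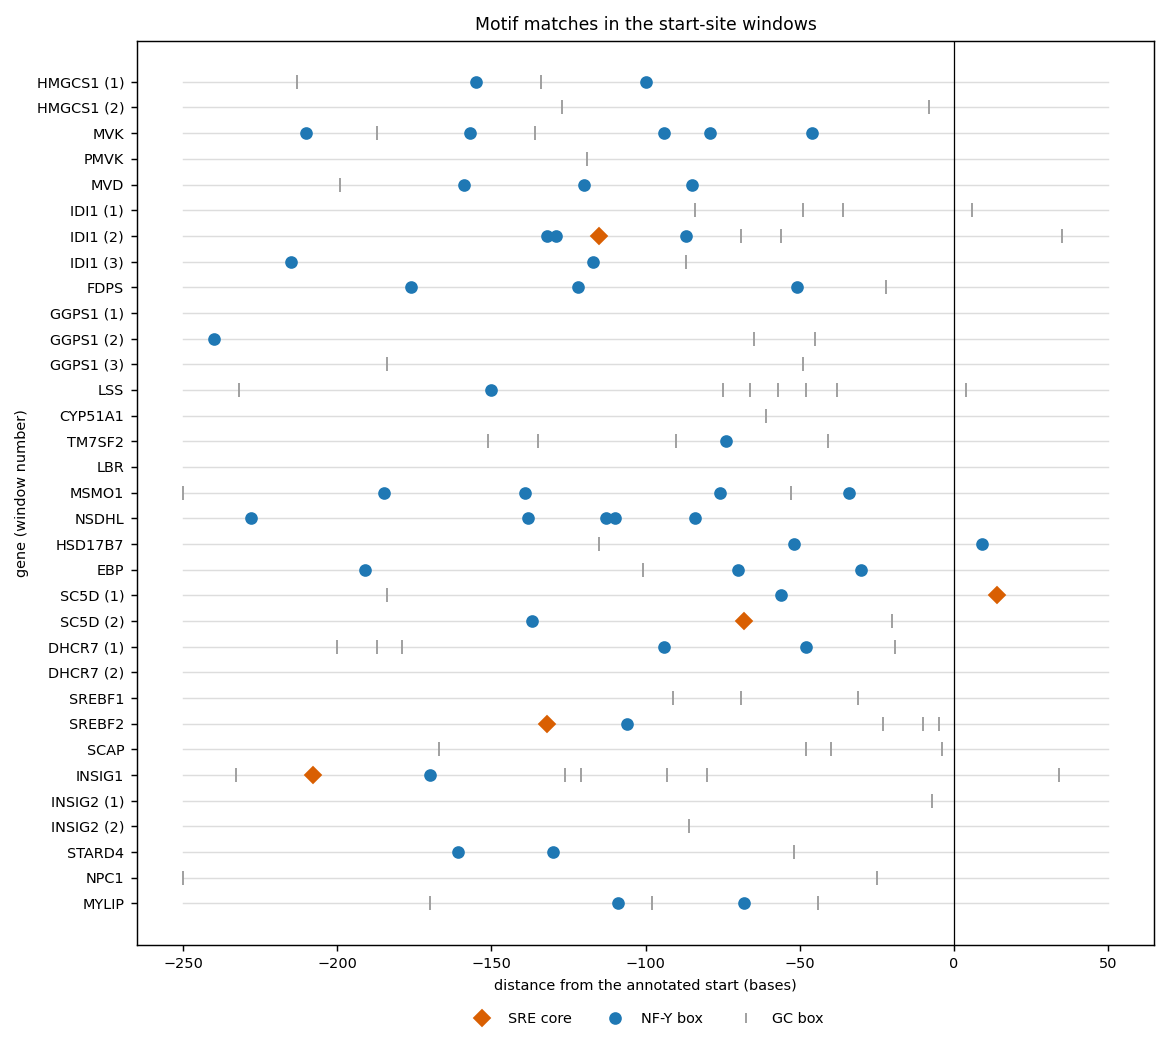
Positions of matches to the SRE core, the CCAAT box bound by NF-Y and the GC box in the 33 windows of 25 members; the horizontal axis is the distance in bases from the annotated start, and a number after a name tells apart several windows of a gene. SRE cores lie in 5 windows of 4 genes, and GC boxes in 29 of the 33 windows.

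The retention protein INSIG1 showed the widest swing among the 28 genes. Its levels were 25.6 and 24.4 CPM on day 0, 87.7 and 91.1 on day 2, and 16.0 and 20.8 on day 5. The days did not overlap, and day 2 stood far above the others. INSIG1 (chr7:155297776-155310235, plus strand) is itself an SREBP target as well as a brake on SREBP processing. It rose 3.58-fold by day 2 (log2 1.84 ± 0.0712 SE, edgeR adjusted p = 3.42e-13) and then fell by 2.27 ± 0.0810 on the log2 scale (adjusted p = 9.33e-14), ending below day 0 (log2 -0.43 ± 0.0935, adjusted p = 0.000569). Its paralog INSIG2, which retains SREBPs in the same way, lay between 7.97 and 13.2 CPM in all 6 libraries. For INSIG2 the libraries of day 0 and day 5 overlapped, and both day 2 libraries stood above them. Its log2 fold change at day 2 was 0.40 ± 0.146 (adjusted p = 0.0235), which did not pass with library totals (0.209), in DESeq2 (0.0608), or without replicate 2 of day 0 (0.365) or replicate 1 of day 2 (0.137). Its change at day 5 against day 2 was -0.46 (adjusted p = 0.0152), not called without replicate 1 of day 2 (0.0827) or replicate 1 of day 5 (0.116).

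The SREBP genes followed different courses. SREBF1 (chr17:17810399-17837002, minus strand), the source of SREBP1, stood at 52.9 and 57.7 CPM on day 0, 32.9 and 36.9 on day 2, and 151 and 158 on day 5. Day 5 was the highest and day 2 the lowest, with no overlap. SREBF1 fell by 0.66 ± 0.0622 on the log2 scale by day 2 (adjusted p = 5.35e-08), then rose 4.41-fold (log2 2.14 ± 0.0583, adjusted p = 2.23e-15), to 2.79 times its day 0 level. SREBF2 (chr22:41833079-41907308, plus strand), the source of SREBP2, read 124 and 129 CPM on day 0, 207 and 228 on day 2, and 202 and 203 on day 5. Both later days lay above day 0. It rose by 0.78 ± 0.0405 at day 2 and stood 0.67 ± 0.0420 above day 0 at day 5 (adjusted p = 2.04e-11 and 1.87e-10). The small step from day 2 to day 5, -0.10 on the log2 scale (adjusted p = 0.0307), did not pass with the stricter filter (0.092), without replicate 2 of day 2 (0.421), or without either day 5 library (0.0869 and 0.0734). SCAP, the escort, resembled SREBF2, with 87.5 and 93.7 CPM on day 0, 135 and 134 on day 2, and 137 and 129 on day 5. SCAP rose by 0.57 at day 2 (adjusted p = 2.58e-09), while its day 5 level did not differ from day 2 beyond the spread (log2 -0.02, adjusted p = 0.73). These are RNA levels, and the cut, nuclear form of the SREBPs was not measured.

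The summed level of the 20 enzymes was 1010.1 and 1007.7 CPM on day 0, 1171.9 and 1175.4 on day 2, and 694.99 and 694.1 on day 5. Each day was apart from the others, with the highest sum at day 2 and the lowest at day 5. The TMM factors, which divide these levels, were 1.098 and 1.091 at day 0 and 0.9633 and 0.9626 at day 2. Without these factors the rise of the sum at day 2 would be much smaller. Behind these sums, 11 enzymes rose and 9 fell at day 2, while at day 5 against day 2, 4 rose and 15 fell. Against day 0, 2 were higher and 14 lower at day 5. The shares of all genes, higher and lower, were 33.4% and 33.4%, 32.1% and 33.7%, and 35.8% and 34.1% in these 3 comparisons. The sums are led by the most abundant genes and say little of the low ones. Per kilobase of the gene length in the deposited table, the 3 highest members at day 0 were FDPS, FDFT1 and LSS, at 82.7, 74.8 and 53.5 CPM per kilobase, and they also led when exon lengths from GENCODE were used instead (32.9, 27.2 and 22.1). LBR was second lowest at day 0 on both scales, at 3.11 and 2.22 CPM per kilobase.

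The 2 genes at the entry to the pathway changed in opposite directions at day 2, and both fell from day 2 to day 5. ACAT2, the cytosolic thiolase that makes acetoacetyl-CoA, read 48.5 and 49.8 CPM on day 0, 22.2 and 21.9 on day 2, and 14.2 and 13.4 on day 5. It fell at each step, by 1.16 ± 0.0666 and then by 0.68 ± 0.0839 on the log2 scale (adjusted p = 7.82e-11 and 1.85e-06), and reached 3.57-fold below day 0. HMGCS1, the cytosolic HMG-CoA synthase that acts next, read 25.6 and 22.8 CPM on day 0, 62.4 and 60.3 on day 2, and 24.3 and 24.8 on day 5. Its day 2 libraries stood above all others, and day 0 and day 5 overlapped. HMGCS1 rose 2.54-fold by day 2 (log2 1.34 ± 0.0650, adjusted p = 7.42e-12) and fell by 1.32 ± 0.0697 after it (adjusted p = 2.25e-11). Its difference of day 5 from day 0 was 0.02 ± 0.0769 (adjusted p = 0.801), which turned to -0.18 with library totals (adjusted p = 0.0456).

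In the steps from mevalonate to isoprenyl diphosphates, the early kinases and the later enzymes diverged at day 2. MVK, mevalonate kinase, read 15.8 and 18.6 CPM on day 0, 6.79 and 7.22 on day 2, and 7.20 and 8.46 on day 5. PMVK, phosphomevalonate kinase, read 16.4 and 17.9, then 7.87 and 8.48, then 14.3 and 19.4 CPM. Both kinases were low at day 2, MVK stayed low at day 5, and PMVK returned to a range that overlapped day 0. MVK fell by 1.30 ± 0.125 and PMVK by 1.07 ± 0.130 on the log2 scale at day 2 (adjusted p = 7.36e-08 and 1.35e-06). PMVK then rose by 1.05 (adjusted p = 3.15e-06), whereas MVK changed by 0.16 (adjusted p = 0.33). MVD, the decarboxylase that closes the mevalonate steps, went the other way, with 39.4 and 41.9 CPM on day 0, 60.5 and 65.8 on day 2, and 31.5 and 30.8 on day 5. MVD rose by 0.63 at day 2 (adjusted p = 3.92e-08) and fell by 1.02 by day 5 (adjusted p = 2.81e-10).

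IDI1, which interconverts the isoprenyl diphosphate isomers, read 39.9 and 39.3 CPM on day 0, 88.8 and 86.6 on day 2, and 28.4 and 28.9 on day 5. The days did not overlap, and replicates differed little beside the steps between days. IDI1 rose 2.22-fold (log2 1.148 ± 0.0490, adjusted p = 1.33e-12) and then fell 3.06-fold (log2 -1.61 ± 0.0553, adjusted p = 5.49e-14). FDPS, farnesyl diphosphate synthase, changed little at first, with 123 and 122 CPM on day 0, 116 and 114 on day 2, and 59.5 and 57.8 on day 5. Its fall came between day 2 and day 5, by 0.97 on the log2 scale (adjusted p = 2.06e-12). The change of FDPS at day 2, -0.09 (adjusted p = 0.048), did not pass when any 1 of the day 0 and day 2 libraries was left out (0.0875 to 0.177). GGPS1, which makes geranylgeranyl diphosphate, read 17.0 and 19.5, then 25.7 and 28.6, then 17.7 and 16.3 CPM. It rose by 0.57 and fell by 0.68 (adjusted p = 3.21e-05 and 1.17e-05), with day 5 against day 0 at -0.10 (adjusted p = 0.374).

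Among the enzymes from squalene to lanosterol, FDFT1 and SQLE were highest at day 2 and LSS was not. FDFT1, squalene synthase, which commits farnesyl units to sterols, read 142 and 141 CPM on day 0, 197 and 201 on day 2, and 106 and 101 on day 5. It rose by 0.50 (adjusted p = 7.11e-10) and fell by 0.94 (adjusted p = 2.98e-13). SQLE, squalene epoxidase, a rate-controlling step, read 61.1 and 61.8, then 81.8 and 81.7, then 38.4 and 36.7 CPM. SQLE rose by 0.41 ± 0.0457 and fell by 1.12 ± 0.0522 (adjusted p = 4.44e-07 and 3.89e-12), so that day 5 lay below day 0 in both libraries. LSS, which folds the epoxide into lanosterol, read 159 and 161 CPM on day 0, 112 and 116 on day 2, and 123 and 129.5 on day 5. LSS fell by 0.49 at day 2 (adjusted p = 2.83e-09) and rose by 0.15 after it (adjusted p = 0.00304).

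From lanosterol onward, MSMO1 had the largest swing of the enzymes. MSMO1, the methylsterol oxidase that starts removal of the paired methyl groups, read 53.8 and 51.6 CPM on day 0, 114 and 112 on day 2, and 28.1 and 24.9 on day 5. It rose 2.14-fold (log2 1.10 ± 0.0494, adjusted p = 2.75e-12) and fell by 2.09 ± 0.0589 on the log2 scale (adjusted p = 3.61e-15), ending 1.99-fold below day 0 (adjusted p = 2.53e-10). Its partners in that demethylation differed from it and from each other. NSDHL, the dehydrogenase, read 33.1 and 33.8, then 23.0 and 22.5, then 14.5 and 17.1 CPM, and it fell by 0.56 and then fell by 0.52 (adjusted p = 8.57e-06 and 9.41e-05). HSD17B7, the ketoreductase, read 6.04 and 6.50, then 14.1 and 13.7, then 8.76 and 7.64 CPM. HSD17B7 rose by 1.145 ± 0.124 at day 2 (adjusted p = 3.39e-07) and fell by 0.76 after it (adjusted p = 5.37e-05). Its difference of day 5 from day 0, 0.38 (adjusted p = 0.0201), was not called with library totals (0.257), with no filter (0.0735), in DESeq2 (0.082), or without replicate 1 of day 0 (0.105) or of day 5 (0.155).

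LBR and TM7SF2, which encode sterol reductases with the same activity, moved in opposite directions. LBR (chr1:225401502-225428925, minus strand), which also tethers chromatin to the inner nuclear membrane, read 11.5 and 11.8 CPM on day 0, 17.7 and 16.5 on day 2, and 38.7 and 41.7 on day 5. It stood higher at each later day, with no overlap, by 0.55 ± 0.0915 and then 1.24 ± 0.0833 on the log2 scale (adjusted p = 4.78e-05 and 6.77e-10), and ended 3.45-fold above day 0. TM7SF2 read 19.4 and 19.4, then 12.2 and 14.4, then 10.6 and 10.9 CPM. TM7SF2 fell by 0.55 at day 2 (adjusted p = 0.000137), and from day 0 to day 5 it fell by 0.85 (adjusted p = 2.48e-06). Its step from day 2 to day 5, -0.30 (adjusted p = 0.028), was not called in DESeq2 (0.0534), without replicate 2 of day 2 (0.266) or without either day 5 library (0.0943 and 0.0699). LBR was the enzyme that rose most from day 0 to day 5.

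The remaining enzymes of the late pathway fell into both patterns. CYP51A1, the lanosterol demethylase, read 64.8 and 62.9, then 83.1 and 80.6, then 42.3 and 41.8 CPM, and SC5D, a sterol desaturase, read 39.9 and 38.9, then 56.2 and 53.6, then 33.7 and 33.4 CPM. Both rose at day 2, by 0.36 and 0.48 (adjusted p = 2.39e-06 and 6.92e-07), and then CYP51A1 fell by 0.96 and SC5D fell by 0.71 (adjusted p = 2.76e-11 and 1.35e-08). DHCR7, the reductase that completes cholesterol from dehydrocholesterol, read 80.4 and 74.9, then 61.01 and 61.1, then 41.7 and 37.5 CPM. DHCR7 fell at both steps, by 0.34 and then by 0.63 (adjusted p = 2.13e-05 and 9.91e-08). EBP, the sterol isomerase, read 14.0 and 12.3, then 9.87 and 8.93, then 11.6 and 11.7 CPM. EBP fell by 0.48 at day 2 (adjusted p = 0.00143). Its later change of 0.32 (adjusted p = 0.0322) was not called with no filter (0.0983), in DESeq2 (0.101), without replicate 2 of day 2 (0.194) or without either day 5 library (0.0819 and 0.0967).

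The transport genes again split. NPC1, which exports cholesterol from late endosomes and lysosomes, read 92.3 CPM in both day 0 libraries, 126 and 133 on day 2, and 47.4 and 45.1 on day 5. NPC1 rose by 0.49 ± 0.0413 (adjusted p = 1.31e-08) and then fell 2.81-fold (log2 -1.49 ± 0.0481, adjusted p = 2.5e-14). STARD4, a soluble carrier of sterol between membranes, read 13.2 and 13.5 CPM on day 0, 31.0 and 30.9 on day 2, and 35.2 and 31.2 on day 5. STARD4 rose by 1.22 ± 0.0828 at day 2 (adjusted p = 7.93e-10), and its step from there to day 5 was 0.10 (adjusted p = 0.278), which did not pass although the libraries of the 2 days did not overlap. STARD4-AS1, a transcript annotated on the opposite strand over 124 bases of STARD4, averaged 2.19, 5.64 and 14.3 CPM at days 0, 2 and 5. Since the strand setting of the counting was not given, reads of this pair cannot be told apart in the shared bases.

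MYLIP, a ubiquitin ligase that sends lipoprotein receptors to degradation, read 7.42 and 8.15 CPM on day 0, 7.996 and 8.07 on day 2, and 22.7 and 22.4 on day 5. The libraries of day 0 and day 2 overlapped, and both day 5 libraries stood above them. MYLIP changed by 0.04 ± 0.117 at day 2 (adjusted p = 0.755) and was 2.90-fold above day 0 at day 5 (log2 1.53 ± 0.109, adjusted p = 1.17e-09). SREBF1 and MYLIP, both known as LXR targets, were thus higher at day 5 than at day 0, and other LXR targets, given below, did not all rise. Of the 20 enzymes, 2 were higher and 14 lower in that comparison, where 35.8% of all genes were higher and 34.1% lower. A link between these genes and the enzymes was not tested.

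Counting orders of the 3 days with no overlap between libraries, 9 members stood highest at day 2 and lowest at day 5 (MVD, IDI1, FDFT1, SQLE, CYP51A1, MSMO1, SC5D, INSIG1 and NPC1), an order held by 9.05% of all genes tested. A further 5 had the order day 0, day 2, day 5 (ACAT2, FDPS, TM7SF2, NSDHL and DHCR7), against 14% of all genes. LSS and EBP ran from day 0 down through day 5 to day 2 (7.75% of all genes), and HSD17B7 and SREBF2 from day 2 through day 5 to day 0 (9.65%). LBR and STARD4 had the order day 5, day 2, day 0 (12.2%), although the later step of STARD4 did not pass the test, and SREBF1 alone had the order day 5, day 0, day 2 (8.86%). For the other 7, libraries of different days overlapped. HMGCS1, GGPS1 and INSIG2 were among these because only their day 0 and day 5 levels met, all 3 being highest at day 2.

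**Figure D4:**
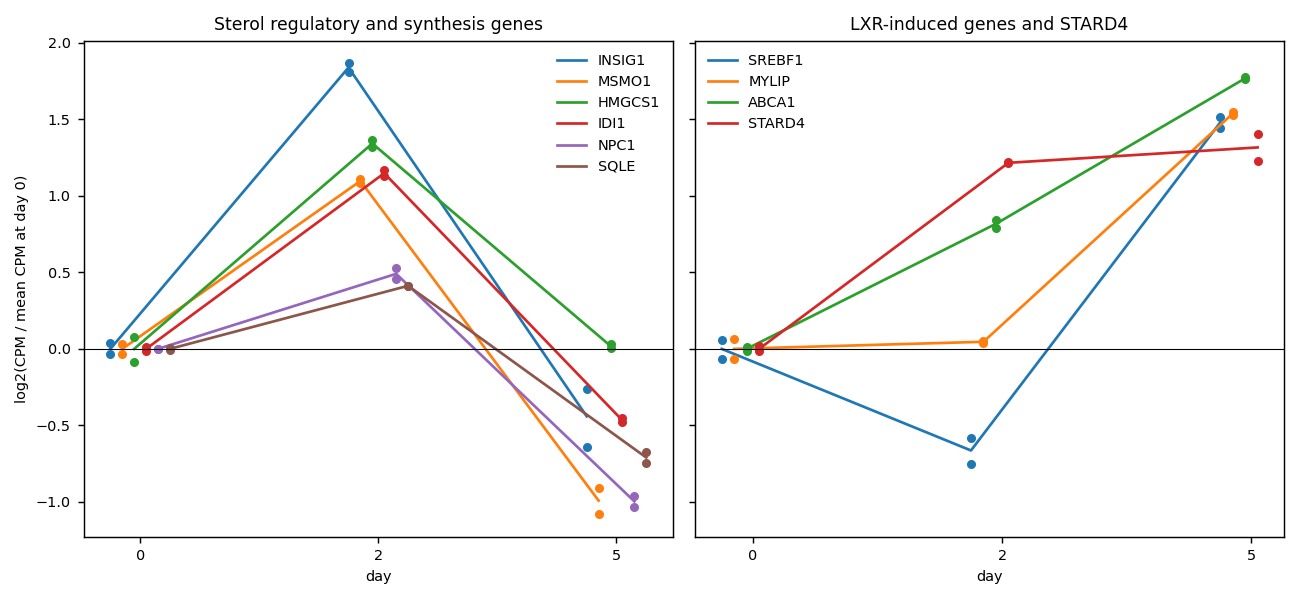
Log2 of CPM over the mean CPM at day 0, for 6 sterol genes (left) and for SREBF1, MYLIP, ABCA1 and STARD4 (right) at days 0, 2 and 5; points are libraries and lines join the means of the 2 libraries. The left genes rise at day 2 and drop by day 5, while SREBF1, MYLIP and ABCA1 are highest at day 5. The left genes are the 6 members called lower over 2-fold at day 5 against day 2, so their shared drop was set by that choice. Other members, such as LSS and NSDHL, fell at day 2 and are not drawn. LPCAT3, an LXR target that was lower at day 5 than at day 0, is not drawn either.

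Genes of 4 neighbouring lists were set beside the members. Of 70 such genes in the table, 69 were tested, and the medians of the 4 lists at day 2 against day 0 ran from -0.09 to 0.14. The largest drop from day 2 to day 5 was in sterol uptake, transport, storage and efflux, where 5 of 22 tested genes rose, 15 fell and the median was -0.63. Of all genes tested, 32.1% rose and 33.7% fell in that comparison, with a median of 0.01. With library totals the split over all 4 lists shifted from 26 higher and 22 lower to 24 and 32 at day 2, and from 32 and 25 to 26 and 36 at day 5 against day 0. All genes tested shifted the same way, from 33.4% higher and 33.4% lower to 4249 and 6902 genes at day 2. For day 5 against day 0 they went from 35.8% and 34.1% to 4415 and 6899 genes. At day 2 against day 0, 9 of the 22 tested genes of the transport list rose and 6 fell, beside 33.4% of all genes in each direction. VLDLR, a lipoprotein receptor, read 7.02 and 5.67 CPM on day 0, 56.0 and 57.9 on day 2, and 8.996 and 11.8 on day 5. Its 9.02-fold rise (log2 3.17 ± 0.106, adjusted p = 4.72e-14) was the largest among the genes of the 4 lists at day 2. CYP27A1, a mitochondrial sterol hydroxylase that makes an oxysterol, read 4.81 and 4.06, then 34.2 and 35.7, then 11.2 and 9.61 CPM, a rise of 2.98 (adjusted p = 2.06e-13) and a fall of 1.76 on the log2 scale.

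The efflux transporter ABCA1, an LXR target, read 68.0 and 66.8 CPM on day 0, 121 and 117 on day 2, and 229 and 231 on day 5. It stood higher at each later day, by 0.82 ± 0.0381 at day 2 and 1.77 ± 0.0372 at day 5, both against day 0 (adjusted p = 4.66e-12 and 3.87e-17). NR1H3 and NR1H2, the genes of the LXRs, ABCG1, another efflux transporter, and LPCAT3, a phospholipid acyltransferase known as an LXR target, were chosen after their values were seen, and they did not move alike. NR1H3 read 22.1 and 23.0, then 21.6 and 22.8, then 45.6 and 45.6 CPM, a log2 difference of 1.02 ± 0.0701 for day 5 against day 0 (adjusted p = 7.56e-10). ABCG1 was near absent before day 5, with 3 and 3 counts on day 0 and 5 and 1 on day 2, against 214 and 283 on day 5. NR1H2 differed by 0.09 at day 5 against day 0 (adjusted p = 0.107) after a rise of 0.70 at day 2 (adjusted p = 1.57e-10), and LPCAT3 fell by 0.84 from day 0 to day 5 (adjusted p = 1.06e-10). NPC2, the soluble partner of NPC1, read 168 and 169, then 149.8 and 153, then 59.0 and 54.5 CPM, and SCARB1, a lipoprotein receptor, 69.0 and 71.7, then 72.9 and 75.5, then 25.2 and 26.8 CPM. From day 0 to day 5 NPC2 fell by 1.57 and SCARB1 fell by 1.43 (adjusted p = 1.82e-15 and 5.27e-13), as NPC1 did, while LRP1, another receptor, rose by 0.58 (adjusted p = 9.7e-15).

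In fatty acid and triglyceride synthesis, the branch that SREBP1 mainly serves, 6 genes rose and 6 fell at day 2, and 9 rose and 6 fell at day 5 against day 0 (16 tested, median 0.31). Of all genes, 33.4% rose and 33.4% fell at day 2, and 35.8% and 34.1% at day 5 against day 0. SCD, the stearoyl-CoA desaturase, read 129 and 125 CPM on day 0, 124 and 121 on day 2, and 231 and 238 on day 5. Like SREBF1 it was highest at day 5, a rise of 0.88 against day 0 (adjusted p = 2.16e-13). ELOVL5, a fatty acid elongase, was already high at day 2, with 52.2 and 54.0, then 182 and 175, then 163 and 159 CPM. ME1, malic enzyme, and ACLY, which makes cytosolic acetyl-CoA, were both lower at day 5 than at day 0, where ME1 fell by 1.499 and ACLY fell by 0.78 (adjusted p = 9.31e-14 and 4.95e-14). ACSL3 and FADS1, which activate and desaturate fatty acids, rose by 1.06 and 0.93 at day 2 (adjusted p = 6.26e-14 and 1.42e-13).

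Among genes of SREBP processing and sterol sensing, 6 rose and 4 fell at day 2 (17 tested, median 0.03), and 9 rose and 5 fell at day 5 against day 0. The day 2 counts are near or below the 33.4% of all genes called in each direction, and at day 5 the shares of all genes were 35.8% higher and 34.1% lower. SEC24A, a coat subunit of the vesicles that carry SCAP and SREBPs to the Golgi, read 25.9 and 26.1, then 64.2 and 67.7, then 45.5 and 46.8 CPM, a rise of 1.34 at day 2 (adjusted p = 1.16e-12). SEC23A rose by 0.83 at day 2 (adjusted p = 6.82e-13), and SEC24D stood 0.51 above day 0 at day 5 (adjusted p = 1.31e-09), coat subunits like SEC24A. PAQR3, a Golgi protein, rose by 0.92 at day 2 (adjusted p = 6.59e-07). RNF145, a ubiquitin ligase that acts on sterol-regulated proteins, fell by 0.65 at day 2 (adjusted p = 3.71e-10).

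The isoprenoid branches, which draw on the same farnesyl and geranylgeranyl units, had 5 genes higher and 6 lower at day 2, and 5 higher and 4 lower at day 5 against day 0 (14 tested, median -0.05). These are close to the shares of all genes, 33.4% in each direction at day 2 and 35.8% and 34.1% at day 5. ICMT, which methylates prenylated proteins, read 171 and 172, then 92.6 and 95.8, then 105 and 104.6 CPM, a fall of 0.86 at day 2 (adjusted p = 8.62e-13). ZMPSTE24, a protease for farnesylated proteins, fell by 0.59 from day 0 to day 5 (adjusted p = 2.37e-08). DHDDS and NUS1 encode the subunits of 1 enzyme of dolichol synthesis, and they moved apart at day 2, DHDDS by -0.63 and NUS1 by 0.97 (adjusted p = 2.51e-08 and 4.61e-10). DOLK, dolichol kinase, fell by 0.97 at day 2 (adjusted p = 1.86e-09). FNTA, a subunit of prenyl transferases, rose by 0.53 at day 2 (adjusted p = 4.45e-07), while its day 5 difference from day 0 was 0.02 (adjusted p = 0.798), or -0.19 with library totals (adjusted p = 0.0164).

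**Figure D5:**
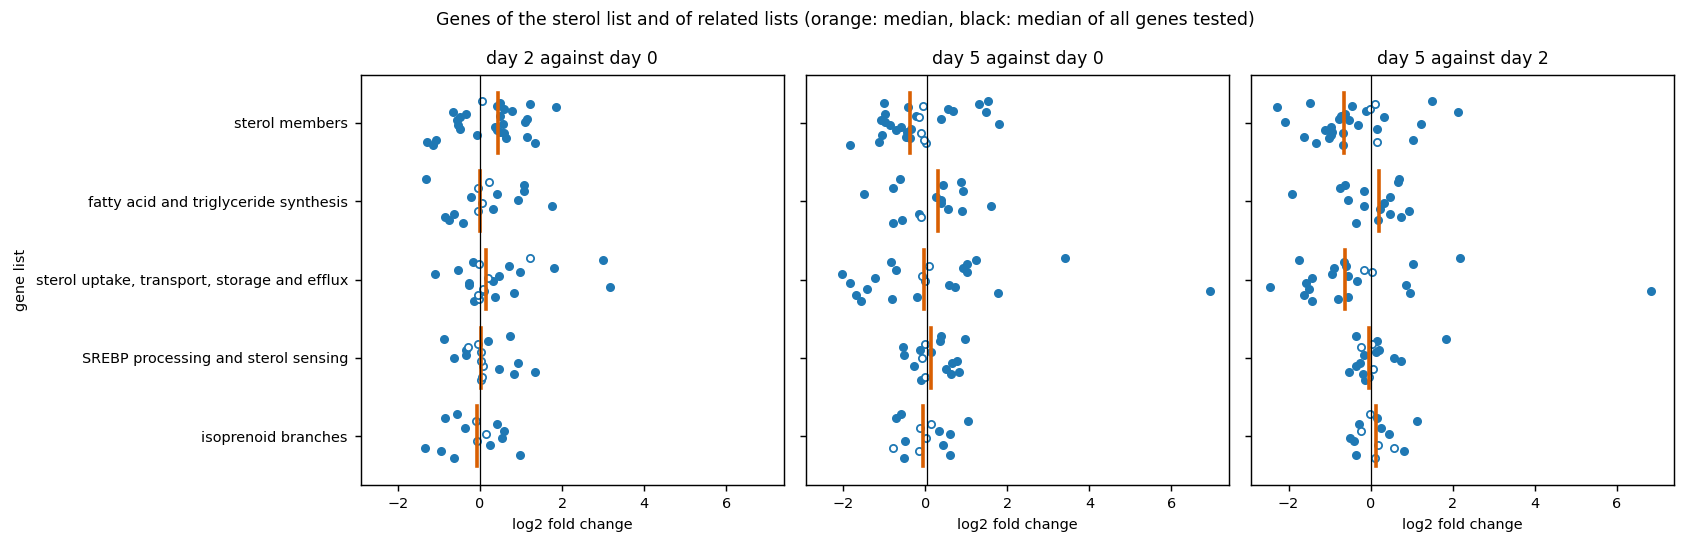
Log2 fold change of each tested gene of the sterol list and of 4 related lists in the 3 comparisons; filled points have an adjusted p below 0.05, orange bars are list medians and black lines the median of all genes tested. The sterol members have a median of 0.44 at day 2 against day 0 and of -0.65 at day 5 against day 2.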

How the data were processed

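RNA sequencing was analysed for 6 libraries, 2 for each of days 0, 2 and 5. The authors deposited expected counts, estimated counts per gene that need not be whole, with no scaling across libraries, as seen in the values. Exactly whole numbers made up 87.2% of values, and fractions were rounded. Per the submitters' processing notes the genome was GRCh38. Which aligner, counting tool, annotation release and strand setting were used is not given in the sources used here. Libraries were prepared with a TruSeq RNA kit, per the labels' protocols.

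The 172 genes without a name (0.0356 to 0.0475% of a library's counts) were left out. All 6 libraries entered 1 edgeR fit by day (edgeR 4.0.16, R 4.3.3; TMM factors; filterByExpr with a minimum count of 10 and a minimum total of 15), which kept 16327 genes and left 3 residual degrees of freedom. The quasi-likelihood test and glmTreat at 2-fold were two-sided, with p adjusted by Benjamini-Hochberg over all genes tested and called at 0.05. A standard error (SE) is the log2 fold change over the square root of the F statistic. Simulated data were used to test these steps.

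The members and the 4 related lists were chosen with earlier results of these data known. All members were named. Of each related list the rule took up to 4 genes of lowest adjusted p at day 5 against day 0 and up to 2 more at day 2 against day 0, with a mean of at least 5 CPM. Results of some genes that this rule takes are not reported here. Other genes are marked where named. Gene positions came from GENCODE release 29 on GRCh38. Alternatives were DESeq2 1.42.0, limma-voom (limma 3.58.1), RLE size factors, library totals, no filter, a stricter filter (1 CPM in 4 libraries), fits of only the days compared, the replicate number as a block, and leaving out each library.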

Additional observations from a re-analysis of the deposited data

How the results depend on the processing

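Of 84 results for single members (28 genes in 3 comparisons), 75 were called, and 68 of these kept their direction and their call in all 14 alternatives. The other 7 were FDPS and INSIG2 at day 2 against day 0, HSD17B7 at day 5 against day 0, and EBP, INSIG2, SREBF2 and TM7SF2 at day 5 against day 2, whose values stand beside them above. A further 3 gained a call, among them GGPS1 (-0.31, adjusted p = 0.0121) and EBP (-0.37, adjusted p = 0.0102) at day 5 against day 0 with library totals. With library totals, HMGCS1 (-0.18) and FNTA (-0.19) at day 5 against day 0 turned sign and were called. Values near 0 that were called on neither side also changed sign in some alternatives: PMVK (up to 0.17) and INSIG2 (up to 0.18) at day 5 against day 0, MYLIP (down to -0.14) and SCARB1 (down to -0.11) at day 2 against day 0, and SCAP (up to 0.03) and ZMPSTE24 (up to 0.02) at day 5 against day 2. Members called numbered 25 to 27, 22 to 23 and 21 to 25 when 1 library was left out, in the order day 2 against day 0, day 5 against day 0, day 5 against day 2. Leaving out 1 library gave 2 to 6 members over 2-fold at day 2 against day 0, with 2 to 4 higher and 0 to 2 lower. With library totals 2 were higher over 2-fold there, and at day 5 against day 0 there were 10, of which 7 were lower. With RLE size factors or with no filter, 2 were lower at day 5 against day 0. The cause of these shifts was not tested, beyond the smaller number of samples when a library is left out.

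The labels gave replicate numbers but no pairing between days. Deviations of same-numbered libraries correlated at 0.0642, 0.0378 and 0.0601 over 11059 genes. Little shared deviation was thus seen, which cannot settle whether the libraries were paired. With the replicate block, 27, 23 and 25 members were called, and 7, 5 and 9 changed over 2-fold. With 2 libraries a day and 3 residual degrees of freedom, small changes such as that of FDPS at day 2 rest on single libraries. Depth was lowest at day 5, where 3 counts equal 0.155 to 0.170 CPM.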

Other observations

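Several members share bases with a neighbouring gene, and the strand setting of the counting was not given, so reads in the shared bases cannot be told apart. On the opposite strand ACAT2 shares 1458 exonic bases with SOD2-OT1, at 0.327, 0.1785 and 0.120 CPM at days 0, 2 and 5. It shares 1141 with an entry of SOD2 that has no level here. ACAT2 also overlaps TCP1, a chaperonin subunit on the opposite strand, by 397 exonic bases, and TCP1 averaged 159.8, 129.5 and 87.1 CPM at days 0, 2 and 5. It was lower at each later day, like ACAT2. MVK shares 306 bases with MMAB, at 11.7, 6.46 and 7.54 CPM, again with the order of MVK. SREBF1 shares 556 bases with RAI1, at 91.9, 67.6 and 86.7 CPM, where day 5 stood below day 0 while SREBF1 was 2.79 times as high. NPC1 shares 604 bases with RMC1, at 25.4, 25.6 and 15.8 CPM. GGPS1 shares 138 bases with ARID4B, at 18.7, 41.0 and 30.4 CPM, and 1422 with TBCE on its own strand, at 9.50, 6.18 and 5.49 CPM. IDI1 shares 643 bases with IDI2-AS1, at 0.519, 2.80 and 1.63 CPM. The part of the shared bases in the results was not tested.

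Pseudogene copies of the members were low. HSD17B7P2, a copy of HSD17B7, had the highest level among those matched by name, at most 1.17 CPM in a library, against 6.04 CPM in the lowest HSD17B7 library.

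Among the related genes, TMEM97, a sterol-regulated binding partner of NPC1, was chosen after its values were seen. TMEM97 fell by 1.09 at day 2 and by 0.94 from day 2 to day 5. FASN and ACACA, the fatty acid synthase and the carboxylase that feeds it, chosen likewise, fell by 0.63 and 0.85 at day 2 and rose by 0.47 and 0.75 from day 2 to day 5. All of these changes had an edgeR adjusted p below 0.05. Neither FASN nor ACACA was higher at day 5 than at day 0. Their log2 differences there were -0.16 for FASN (edgeR adjusted p = 0.00244) and -0.09 for ACACA (adjusted p = 0.0737, not called).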
